A study of Mus musculus with 18 samples.

Results

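The Hoxb cluster is 1 of the 4 groups of Hox genes that mammals carry, and in the mouse it lies on chromosome 11. Hox genes encode homeodomain transcription factors that set the position of cells along the body axis. The genes at the 3′ end of a cluster (Hoxb1 to Hoxb4) are switched on first and reach into the hindbrain, and those towards the 5′ end (Hoxb5 to Hoxb9, then Hoxb13) are switched on later and further towards the tail. Neural cells keep much of this code after development, and cells of the forebrain, which forms in front of the Hox domain, are known for having little of it. The 10 Hoxb genes were taken by name from the table of gene values, and 9 of them had a row among the 27997 genes there. Hoxb1 had none and is not analysed here.

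RNA was sequenced from adherent cultures of neural stem cells (NSCs) and of astrocytes made from them, in 6 groups of 3 libraries, 18 in all. The traced lines came from spinal cord cells labelled by DNGR-1 lineage tracing, in which Cre recombinase is made from the Clec9a locus and leaves a fluorescent reporter in the cell and its descendants. The tdTomato line (Clec9a-Cre, Rosa LSL tdTomato, genotype DNGR-1 +/- Tom+/-) and the EYFP line (Clec9a-Cre, Rosa LSL EYFP, genotype DNGR-1 +/- EYFP+/-) came from spinal cords. The methods describe a sort of reporter-positive neurosphere cells for tdTomato, and a sort of the EYFP line is not described there. The hippocampal line carried Glast Cre, a floxed Huwe1 allele and Rosa LSL EYFP, and its genotype is labelled DNGR-1+/+. NSCs were kept in EGF, bFGF and laminin and collected on day 4, and astrocytes were exposed to BMP4 at 20 ng/ml and collected on day 6. Each line is 1 line, and its replicates are cultures at passages 10 to 12, so the p-values measure only the spread between cultures of a line. Region of origin, Cre driver, Huwe1 allele and line cannot be told apart in the comparison of traced with hippocampal cultures, nor can the reporter for the tdTomato line, while the EYFP and hippocampal lines both carry Rosa LSL EYFP. The labels give no age for the donor mice, and the methods state only a general range in weeks for the mice of all experiments.

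The values are normalised log2 values, on which a difference of 1 is a doubling. The transform is not named, and if it is a regularized log, which the numbers look like, differences of low genes are understated. The reads behind a value are unknown. Gfap, the astrocyte filament gene, averaged 9.06 to 9.30 in NSCs and 15.14 to 16.40 in astrocytes, as the labels of fate have it. Nes, the NSC filament gene, averaged 13.86 to 14.27 in the 3 NSC groups and 11.09 and 10.86 in tdTomato and EYFP astrocytes, but 13.64 in hippocampal astrocytes, whose libraries overlapped those of hippocampal NSCs. Nes therefore did not separate the fates in the hippocampal line. The 5 NSC markers did not move as a set. On differentiation 2 rose and 3 fell in each traced line, and 2 rose and 2 fell in the hippocampal line (limma, adjusted p under 0.05). Of all genes tested, 78.4% (tdTomato), 75.2% (EYFP) and 76.3% (hippocampal) changed. Of 6 forebrain markers, 4 reached the filter level of 3.32 (10 on the linear scale) in the mean of each hippocampal group and 3 in that of each traced group. Otx1 ran from 7.96 to 8.02 in hippocampal NSCs and averaged 8.46 in hippocampal astrocytes, against means of 5.74 to 5.89 in the traced groups. Emx2 averaged 8.66 and 8.92 against 7.87 to 8.25, and Lhx2 averaged 9.23 in hippocampal NSCs against 8.84 and 9.10 in traced NSCs, and 8.83 against 7.59 and 7.57 in astrocytes, so that the traced groups also held both. Emx1 and Otx2 stayed below the filter level in the mean of every group. None of the 3 microglial and 2 endothelial markers in the table reached the filter level in the mean of any group.

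The members are told apart by the homeobox, the stretch of the gene that encodes the DNA-binding domain. Its last helix, which sits in the major groove of the DNA, is shown here for 6 Hoxb genes, since it is where the proteins meet their shared target letters. The 54 bases are from the GENCODE M21 transcripts on GRCm38, plus strand, and capitals mark the bases that differ from Hoxb9, the member with the highest level per length in 3 of the 4 traced groups when the longest transcript is used:
Hoxb13, chr11:96196137-96196190: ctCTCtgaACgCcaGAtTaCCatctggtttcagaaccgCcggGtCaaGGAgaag
Hoxb9, chr11:96274776-96274829: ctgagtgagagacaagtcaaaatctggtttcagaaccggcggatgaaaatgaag
Hoxb8, chr11:96284291-96284344: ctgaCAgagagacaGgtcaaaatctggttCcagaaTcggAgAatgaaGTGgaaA
Hoxb7, chr11:96289502-96289555: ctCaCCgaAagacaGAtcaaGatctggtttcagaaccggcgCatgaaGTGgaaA
Hoxb6, chr11:96300806-96300859: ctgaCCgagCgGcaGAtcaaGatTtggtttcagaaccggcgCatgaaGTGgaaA
Hoxb2, chr11:96353102-96353155: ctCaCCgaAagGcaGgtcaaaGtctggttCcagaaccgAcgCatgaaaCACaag

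Hoxb13 differed from Hoxb9 at 17 of these bases and Hoxb8, its neighbour on the other side, at 11. Over the whole homeobox of 180 bases, identity between members ran from 50.6% (Hoxb5 and Hoxb13) to 88.9% (Hoxb6 and Hoxb7). No member shared a 75-base stretch of its longest transcript with another gene on the same strand, so reads of that length from 1 Hoxb gene do not match another in full. On the opposite strand, 67.6% of the stretches of Hoxb3 and 17.2% of those of Hoxb2 lay in the antisense gene Hoxb3os. A stranded kit is named in the labels, but whether counting used strand is not stated, so Hoxb3 and Hoxb2 could share reads with it and are uncertain to that extent.

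The Hoxb genes were high in both traced lines and low in the hippocampal line, as NSCs and as astrocytes. Leaving aside Hoxb13, the lowest of the 12 traced libraries stood at a log2 value of 5.15, and the highest of the 6 hippocampal ones at 4.65. For 8 members, each of the hippocampal libraries lay below every traced library, as did 1.87% of the 15448 genes tested. Of these 8, Hoxb2 and Hoxb4 to Hoxb7 were tested wholly or nearly so through traced libraries, so nothing is read from the count.

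**Figure D1:**
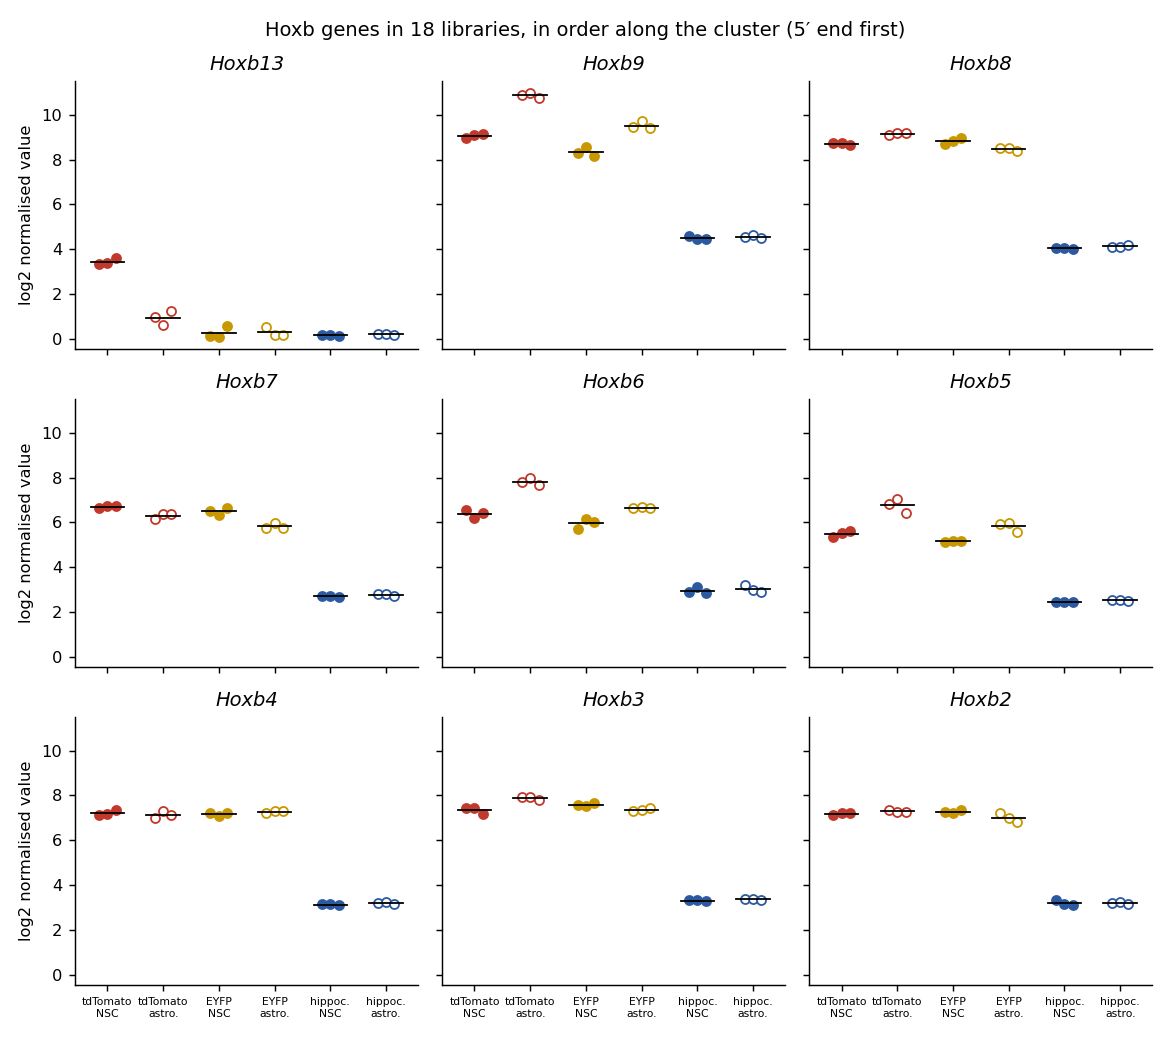
Normalised log2 value of each of the 9 Hoxb genes (1 panel a gene, in order along the cluster) in the 18 libraries, with filled points for NSCs, open points for astrocytes and a line at the mean of 3. In 8 panels the hippocampal points lie below all traced points (1.87% of all genes tested do so), and in the Hoxb13 panel the tdTomato NSCs (3.37 to 3.61) lie above the rest.

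Hoxb9, a trunk Hox gene at the 5′ side of the cluster, had log2 values of 8.95, 9.11 and 9.13 in tdTomato NSCs, 8.27, 8.56 and 8.14 in EYFP NSCs and 4.58, 4.47 and 4.46 in hippocampal NSCs. In astrocytes they were 10.86, 10.96 and 10.76 in the tdTomato line, 9.45, 9.70 and 9.40 in the EYFP line and 4.53, 4.65 and 4.49 in the hippocampal line. No group of either traced line overlapped another group, and tdTomato astrocytes were the highest of all. The hippocampal groups overlapped each other.

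Hoxb8, known for its part in posterior patterning and in blood progenitors, had log2 values of 8.74, 8.73 and 8.67 in tdTomato NSCs and 8.71, 8.83 and 8.96 in EYFP NSCs, which overlapped. In astrocytes it stood at 9.08, 9.16 and 9.16 in the tdTomato line and at 8.50, 8.52 and 8.39 in the EYFP line, which did not. The hippocampal libraries ran from 4.03 to 4.20.

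Hoxb6 and Hoxb5, genes of the middle of the cluster, had astrocyte values above all NSC values of the same line in both traced lines. Hoxb6 had log2 values of 6.54, 6.21 and 6.41 in tdTomato NSCs and 7.79, 7.96 and 7.65 in tdTomato astrocytes. In the EYFP line it had 5.69, 6.13 and 6.04 in NSCs and 6.65, 6.67 and 6.63 in astrocytes. Hoxb5 had 5.36, 5.54 and 5.60 in tdTomato NSCs, 6.81, 7.04 and 6.43 in tdTomato astrocytes, 5.15, 5.17 and 5.19 in EYFP NSCs and 5.95, 5.96 and 5.59 in EYFP astrocytes. Hippocampal libraries stood at 2.87 to 3.20 for Hoxb6 and at 2.44 to 2.56 for Hoxb5.

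Hoxb7, which lies between Hoxb8 and Hoxb6, went the other way. Its log2 values were 6.62, 6.72 and 6.73 in tdTomato NSCs and 6.14, 6.35 and 6.37 in tdTomato astrocytes. In the EYFP line they were 6.50, 6.33 and 6.64 in NSCs and 5.77, 5.96 and 5.75 in astrocytes. The astrocytes lay below the NSCs of the same line without overlap.

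The 3′ members Hoxb4, Hoxb3 and Hoxb2, genes of the hindbrain and upper cord, come next. Hoxb4 had log2 values from 6.97 to 7.33 in the 12 traced libraries, and all comparisons between traced groups overlapped where only fate or only line differed. Hoxb3 had 7.42, 7.45 and 7.17 in tdTomato NSCs, 7.58, 7.52 and 7.65 in EYFP NSCs, 7.93, 7.94 and 7.78 in tdTomato astrocytes and 7.32, 7.34 and 7.43 in EYFP astrocytes. The tdTomato libraries thus lay below the EYFP ones as NSCs and above them as astrocytes. Hoxb2 ran from 7.12 to 7.36 in traced NSCs and in tdTomato astrocytes, and EYFP astrocytes had 7.20, 7.01 and 6.84.

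Hoxb13, the most 5′ gene and a marker of the tail end of the axis, was the exception. In tdTomato NSCs its log2 values were 3.37, 3.39 and 3.61, just above the filter level. EYFP NSCs had 0.13, 0.12 and 0.57, hippocampal NSCs 0.17, 0.17 and 0.15, and the astrocytes 0.98, 0.64 and 1.24 (tdTomato), 0.55, 0.18 and 0.20 (EYFP) and 0.22, 0.23 and 0.18 (hippocampal). It passed the filter through tdTomato NSCs alone. Hoxb7, Hoxb6, Hoxb5 and Hoxb4 passed through traced libraries alone, and Hoxb2 with 1 hippocampal library at the level. Hoxb9 and Hoxb8 had all 6 hippocampal libraries there, and Hoxb3 had 5. Members that pass only where they are high must differ between lines, so the counts below describe the members and support nothing further. For Hoxb13 this covers every comparison with tdTomato NSCs, between fates too, and those values are given without a p.

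Between genes, levels were set side by side after log2 of the longest transcript's length in kb was taken off. In tdTomato NSCs the level per kb was 7.70 ± 0.10 (SD, n = 3) for Hoxb9, 7.32 ± 0.04 for Hoxb8 and 6.32 ± 0.06 for Hoxb7, and below them came Hoxb4, Hoxb3, Hoxb2, Hoxb6, Hoxb5 at 4.02 ± 0.13 and Hoxb13 at 2.31 ± 0.13. The libraries of Hoxb3 and Hoxb2, and those of Hoxb2 and Hoxb6, overlapped, and the other neighbours in that order did not. EYFP NSCs had Hoxb8 first, at 7.43 ± 0.13 per kb, and Hoxb9 next, at 6.96 ± 0.22. There, Hoxb7, Hoxb3, Hoxb4 and Hoxb2 each overlapped the next.

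In astrocytes Hoxb9 led in both traced lines, at 9.49 ± 0.10 per kb in the tdTomato line and 8.15 ± 0.16 in the EYFP line, with Hoxb8 next at 7.74 ± 0.05 and 7.07 ± 0.07. Next came Hoxb6 in the tdTomato line (6.83 ± 0.15 per kb) and Hoxb4 in the EYFP line (5.92 ± 0.05 per kb). With the longest transcript, Hoxb5 stayed the lowest member but for Hoxb13 in each traced group. The order rests on which transcript is made. With the shortest coding transcript Hoxb8 came first in all 4 traced groups. It stood at 9.30 per kb in tdTomato NSCs, with Hoxb3 behind it (7.94), at 9.06 against 8.33 for Hoxb9 in EYFP astrocytes, and at 9.73 against 9.68 in tdTomato astrocytes, where the libraries overlapped.

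**Figure D2:**
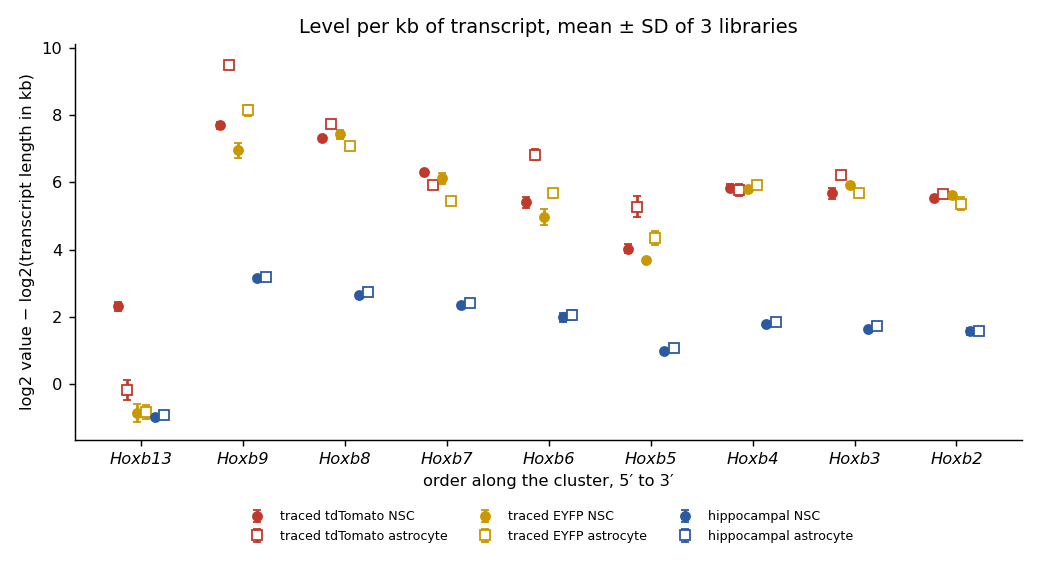
Level per kb (log2 value less log2 of the longest transcript's length in kb) for the 9 Hoxb genes in order from the 5′ to the 3′ end of the cluster, as mean ± SD of 3 libraries in each group. Levels fall from Hoxb9 to Hoxb5 in tdTomato NSCs (7.70 to 4.02) and stand higher again at Hoxb4, and Hoxb13 lies apart at the bottom.

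Traced NSCs were first set against hippocampal NSCs. In the tdTomato line all 9 tested members were higher (limma, adjusted p under 0.05), where 19.8% of the 15448 genes tested were higher and 37.2% differed in either direction. The median difference of the members was 3.98 on the log2 scale, against 0.02 over all genes. Hoxb8 stood highest above the hippocampal line, by 4.67 (SE 0.08, 95% interval 4.51 to 4.83, limma adjusted p = 4.4e-18), a fold of 25.4. Hoxb9 followed with 4.56 (SE 0.10). The smallest differences were those of Hoxb5, at 3.04 (SE 0.16), and Hoxb13, at 3.29 (SE 0.23).

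In the EYFP line 8 of 9 members were higher than in hippocampal NSCs, with 13.8% of all genes higher and 25.8% different in either direction. Hoxb8 again stood highest, by 4.78 (SE 0.08, adjusted p = 5e-18, limma), and Hoxb3 by 4.27 (SE 0.10). Hoxb9 stood 3.82 (SE 0.10) and Hoxb5 2.71 (SE 0.16) above. Hoxb13 did not pass, with a difference of 0.11 (95% interval -0.38 to 0.60, limma adjusted p = 0.79). Both comparisons used the same hippocampal libraries and are not independent of each other.

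In astrocytes the distance was wider for Hoxb9 and Hoxb6 in both traced lines and narrower for Hoxb7 (3.51 in the tdTomato line after 3.98 in NSCs, and 3.04 in the EYFP line after 3.78). All 9 were higher in tdTomato than in hippocampal astrocytes (27.2% of all genes higher, 58.2% different), and Hoxb9 stood 6.30 above (SE 0.10, adjusted p = 2.8e-18, limma), a fold of 78.9. Hoxb8 stood 4.99 (SE 0.08) and Hoxb6 4.77 (SE 0.14) above. Hoxb13 differed by 0.74 (SE 0.23, adjusted p = 0.011, limma), which was lost without tdTomato astrocyte replicate 3 (0.60, adjusted p = 0.061) and with a pseudocount of 10 (0.10). In the EYFP line 8 of 9 were higher (24.1% of all genes higher, 51.6% different), among them Hoxb9 by 4.96 (SE 0.10) and Hoxb8 by 4.32 (SE 0.08), less than the 4.78 in NSCs. Hoxb13 differed there by 0.10 (adjusted p = 0.75, limma).

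Within the hippocampal line the members barely moved. Of the 54 values of members in its 6 libraries, 50 lay within 0.1 of a common profile, the median of the members' deviations in each library. The departures were Hoxb8 in astrocyte replicate 3, Hoxb6 in NSC replicate 2 and astrocyte replicate 1, and Hoxb2 in NSC replicate 1, each of them upward. The profile came from the same members and itself ran only from -0.04 to 0.07, inside the tolerance of 0.1. The count therefore does not show that the members moved together. At these hippocampal values few reads cannot be told apart from none. The folds above are against a level that may stand above the true one.

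The traced lines were then compared with each other, which asks whether the lines made with different reporters hold the same Hoxb code. In NSCs 3 of 9 members differed, all higher in the tdTomato line, where 16.4% of all genes were higher and 31.4% differed. Hoxb13, tested only because it was high in tdTomato NSCs, was higher by 3.18 (SE 0.23), and without it 2 of 8 members differed. Hoxb9 was higher by 0.74 (SE 0.10, adjusted p = 4.4e-05, limma) and Hoxb6 by 0.43 (SE 0.14, adjusted p = 0.029, limma). The Hoxb6 call was lost without tdTomato NSC replicate 1 (0.35) or 3 (0.42) or EYFP NSC replicate 1 (0.30), and with quantile normalization (0.39, adjusted p = 0.057). Without any 1 of the tdTomato NSC libraries Hoxb13 no longer passed the filter, and without replicate 1 or 3 only Hoxb9 was called.

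The other members were close. Hoxb4 differed by 0.03 (95% interval -0.19 to 0.26), Hoxb2 by -0.10 (-0.33 to 0.13), Hoxb8 by -0.12 (-0.28 to 0.05) and Hoxb7 by 0.20 (-0.06 to 0.46), tdTomato less EYFP. Hoxb3 was at -0.24 (adjusted p = 0.083, limma) and Hoxb5 at 0.33 (adjusted p = 0.12, limma), neither past the threshold, although the libraries of both, and those of Hoxb2, did not overlap between the lines.

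In astrocytes 6 of 9 members were higher in the tdTomato line than in the EYFP line, where 7.06% of all genes were higher and 14.4% differed. The differences were 1.34 for Hoxb9 (SE 0.10, adjusted p = 7.2e-08, limma), 1.15 for Hoxb6 (SE 0.14), 0.93 for Hoxb5 (SE 0.16), 0.66 for Hoxb8 (SE 0.08), 0.52 for Hoxb3 (SE 0.10) and 0.47 for Hoxb7 (SE 0.12). Hoxb7 was called at an adjusted p of 0.014 (limma) and lost the call without tdTomato astrocyte replicate 2 or 3 or EYFP astrocyte replicate 1 or 3 (0.42 to 0.44). Hoxb13 (0.64), Hoxb2 (0.28) and Hoxb4 (-0.14) did not pass. In bulk cultures, fewer cells with a transcript and less of it per cell cannot be told apart.

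Astrocyte markers also differed between the traced lines. The sum of the 8 markers on the linear scale was 34230 to 43253 in tdTomato NSCs and 50670 to 58891 in EYFP NSCs, and 6 of the 8 differed. In astrocytes it was 154994 to 180125 and 175363 to 211070, and 2 of the 8 differed. Their part in the Hoxb differences was not tested.

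**Figure D3:**
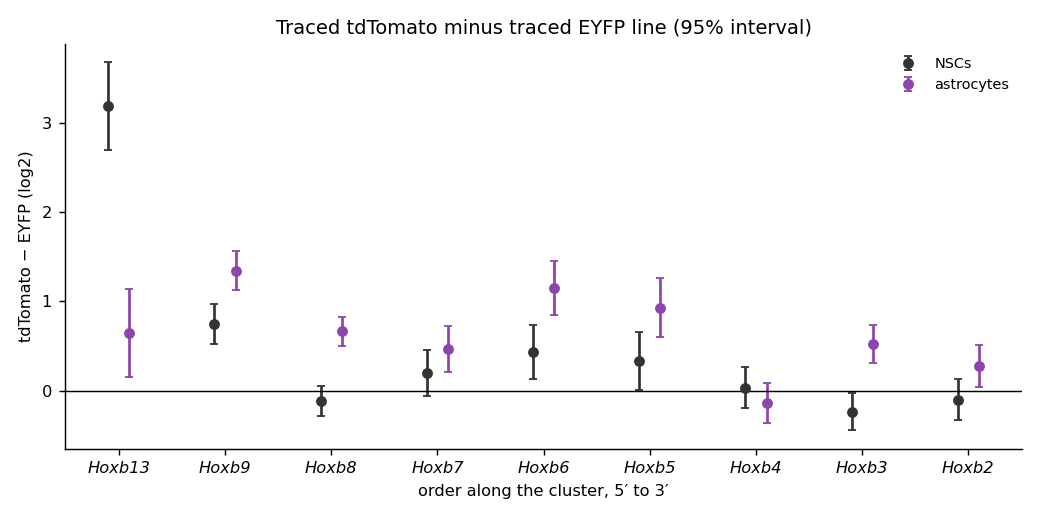
Difference between the traced lines (tdTomato less EYFP, log2) for the 9 Hoxb genes in NSCs and in astrocytes, with 95% intervals from limma. Hoxb13 stands out in NSCs (3.18), and Hoxb9, Hoxb6 and Hoxb5 have the largest called differences in astrocytes (1.34, 1.15 and 0.93).

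The change from NSC to astrocyte was read within each line, to see whether BMP4 differentiation leaves the Hoxb code as it was. In the tdTomato line 7 of 9 members changed, 5 upward and 2 downward, where 39.9% of all genes rose and 38.5% fell (78.4% changed). Hoxb9 rose by 1.79 (SE 0.10, adjusted p = 2.8e-11, limma), Hoxb6 by 1.42 (SE 0.14), Hoxb5 by 1.26 (SE 0.16), Hoxb3 by 0.53 (SE 0.10) and Hoxb8 by 0.42 (SE 0.08). Hoxb7 fell by 0.40 (SE 0.12, adjusted p = 0.0063, limma). Hoxb13 was -2.50 (SE 0.23) in astrocytes less NSCs, a direction that the filter fixed, and without it 6 of 8 members changed. Hoxb2 (0.12) and Hoxb4 (-0.07) did not pass. The count of members is near the share of all genes that changed.

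In the EYFP line 6 of 9 members changed, 3 upward and 3 downward, with 38.2% of all genes up and 37.0% down (75.2% changed). Hoxb9 rose by 1.19 (SE 0.10, adjusted p = 9e-09, limma), Hoxb6 by 0.70 (SE 0.14) and Hoxb5 by 0.66 (SE 0.16). Hoxb7 fell by 0.67 (SE 0.12, adjusted p = 8.4e-05, limma), Hoxb8 by 0.36 (SE 0.08) and Hoxb2 by 0.26 (SE 0.11, adjusted p = 0.044, limma). The fall of Hoxb2 was at the edge of the threshold and was lost with no filter (adjusted p = 0.058), with median centring (-0.20, adjusted p = 0.11) and without EYFP astrocyte replicate 3 (-0.17, adjusted p = 0.21), among others. Hoxb3 (-0.22, adjusted p = 0.051, limma), Hoxb4 (0.10) and Hoxb13 (0.04) did not pass. Hoxb3 too was at the edge, and it passed with a pseudocount of 10 (adjusted p = 0.031) and with no variance trend (adjusted p = 0.0088), among others.

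In the hippocampal line 0 of 9 members were called, where 76.3% of all genes changed, and 0 had an unadjusted p under 0.05 (limma). The differences ran from 0.01 (Hoxb2) to 0.10 (Hoxb8). With quantile normalization, which forces all libraries to 1 distribution, 6 of the 9 were called, all lower in astrocytes, the largest being Hoxb2 at -0.33. The hippocampal values are low against the traced ones (2.44 to 4.65 without Hoxb13, where no traced library was below 5.15), and no direction is read from them.

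Markers of other cell types moved with fate as well. The sum of 4 oligodendrocyte markers on the linear scale was 88.9 to 103 in tdTomato NSCs and 1067 to 1298 in tdTomato astrocytes, 97.6 to 120 and 773 to 1060 in the EYFP line, and 116 to 122 and 257 to 307 in the hippocampal line, with 1 of the 4 at the filter level in each traced group. The sum of 4 mural and fibroblast markers went from 129 to 188 in EYFP NSCs to 26.3 to 36.8 in EYFP astrocytes, and from 73.3 to 215 to 36.3 to 55.9 in the tdTomato line. In the hippocampal line it was 52.1 to 63.1 in NSCs and 28.2 to 34.2 in astrocytes. The sum of 2 ependymal markers was 686 to 874 in tdTomato NSCs and 2014 to 2563 in tdTomato astrocytes, 1226 to 1270 and 2145 to 2398 in the EYFP line, and 1233 to 1434 and 4485 to 5031 in the hippocampal line, so that it differed between the traced NSCs too. In each traced group 1 of these 2 markers reached the filter level in the mean. The sum of 5 neuronal markers was 166 to 215 and 418 to 469 in the tdTomato line, 204 to 285 and 352 to 395 in the EYFP line, and 154 to 178 and 345 to 450 in the hippocampal line. Their part in the Hoxb changes was not tested.

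**Figure D4:**
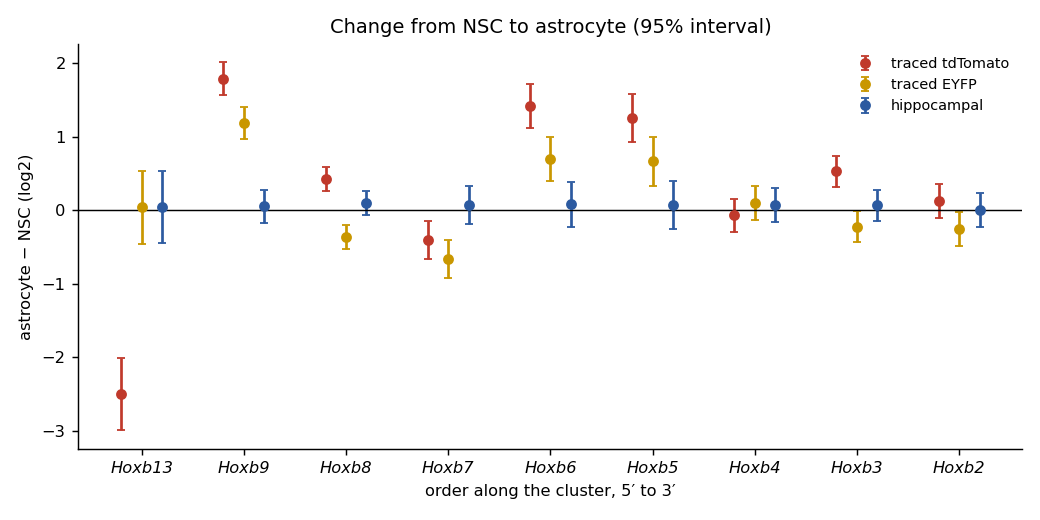
Change from NSC to astrocyte (log2, with 95% intervals from limma) of the 9 Hoxb genes in the 3 lines, in order along the cluster. Hoxb9, Hoxb6 and Hoxb5 rose and Hoxb7 fell in both traced lines, Hoxb8 moved up in the tdTomato line (0.42) and down in the EYFP line (-0.36), and the hippocampal points lie at 0.01 to 0.10.

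Whether the traced lines changed differently was tested as an interaction, and 5 of 9 members passed, where 13.3% of all genes did. The change of Hoxb8 was 0.78 higher in the tdTomato line (SE 0.11, adjusted p = 0.00023, limma), and that of Hoxb3 0.76 higher (SE 0.14, adjusted p = 0.002, limma). Hoxb6 (0.72, adjusted p = 0.025, limma) and Hoxb9 (0.60, adjusted p = 0.012, limma) also rose more in the tdTomato line. Hoxb5 (0.60, adjusted p = 0.084, limma) did not pass, although it did with a pseudocount of 10 (adjusted p = 0.037, limma), among others. Hoxb13 differed by -2.54 (SE 0.33), which the filter fixed as above, and without it 4 of 8 members passed. Hoxb6 lost its call without tdTomato NSC replicate 2 or 3, EYFP NSC replicate 2 or tdTomato astrocyte replicate 2. Without tdTomato NSC replicate 2 or 3, Hoxb13 was not tested and 3 members were called.

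The mean change of the traced lines was also set against that of the hippocampal line, and 5 of 9 members passed, where 46.2% of all genes did. Hoxb9 (1.44, SE 0.13) rose more in the traced lines. Hoxb6 (0.98, SE 0.17), Hoxb5 (0.89, SE 0.19) and Hoxb7 (-0.61, SE 0.15) also passed, but they were tested through traced libraries alone and lay low in the hippocampal line, so these values restate the traced change and the count is a description. With quantile normalization the Hoxb7 value was -0.34. Hoxb13 (-1.28, SE 0.29) mixes a line in which it was lower in astrocytes, as the filter fixed, with a line in which it stayed low, and without it 4 of 8 members passed. Hoxb8 (-0.07), whose changes had opposite signs in the traced lines, did not pass, but with quantile normalization it turned to 0.33 and passed (adjusted p = 0.0078, limma).

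The promoters of Hoxb8 and Hoxb4 are shown, the only members with both a row of values and an entry among the promoters used. Hoxb1 also had an entry but no row of values. On differentiation Hoxb8 moved in opposite directions in the traced lines and Hoxb4 passed in neither, and no link to the motifs is read from this. The windows are the 250 bases before the start site in RefSeq on GRCm38.p6, plus strand. Capitals mark 2 motifs sought on both strands: TTTATNG, bound by Cdx and posterior Hox proteins, and TGATNNAT, a composite of Hox and Pbx:
Hoxb8, chr11:96281655-96281904: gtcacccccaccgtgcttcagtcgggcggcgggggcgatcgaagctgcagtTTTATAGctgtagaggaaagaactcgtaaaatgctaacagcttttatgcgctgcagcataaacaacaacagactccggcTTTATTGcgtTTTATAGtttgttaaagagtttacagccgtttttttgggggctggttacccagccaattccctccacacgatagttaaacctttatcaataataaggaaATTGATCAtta
Hoxb4, chr11:96318017-96318266: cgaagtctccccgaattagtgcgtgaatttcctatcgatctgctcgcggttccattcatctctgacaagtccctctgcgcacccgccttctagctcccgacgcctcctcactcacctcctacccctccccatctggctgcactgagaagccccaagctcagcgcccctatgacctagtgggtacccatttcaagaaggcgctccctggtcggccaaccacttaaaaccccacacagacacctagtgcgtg

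The Hoxb8 window held 3 copies of TTTATNG and 1 of TGATNNAT on the minus strand, with no base in both. The Hoxb4 window held neither. Of 32851 promoter windows of that length, 9.81% held TTTATNG and 7.68% held TGATNNAT. A match is a description of the letters, and binding was not measured.

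Other transcripts of the cluster were mixed. Gm53, a long non-coding RNA between Hoxb13 and Hoxb9, averaged 8.43 ± 0.11 (SD, n = 3) in tdTomato NSCs, 7.93 ± 0.09 in EYFP NSCs and 4.00 ± 0.01 in hippocampal NSCs, and 9.93 ± 0.08, 8.73 ± 0.12 and 4.06 ± 0.03 in the astrocytes in that order. It rose on differentiation by 1.50 (SE 0.09, adjusted p = 2.2e-11, limma) in the tdTomato line and by 0.80 (SE 0.09, adjusted p = 1.4e-07, limma) in the EYFP line, as Hoxb9 beside it did. Gm11536, antisense within Hoxb3, rose by 1.19 and 0.92 (SE 0.20 each), whereas Hoxb3 rose in the tdTomato line and did not pass in the EYFP line.

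Hoxb3os, antisense to Hoxb3 and Hoxb2, did not pass on differentiation in either traced line (0.06 and 0.07, SE 0.22). It averaged 5.24 ± 0.51 in tdTomato NSCs, 5.83 ± 0.03 in EYFP NSCs and 2.46 ± 0.15 in hippocampal NSCs. The difference of tdTomato from EYFP NSCs was -0.59 (adjusted p = 0.047, limma), and tdTomato NSC replicate 2, at 4.65, stood below the other 2. The genes flanking the cluster, Ttll6 and Skap1, averaged -1.99 to -1.91 in every group, at the bottom of the scale. Hoxb5os, Mir196a-1, Gm11539 and Gm11531, which also lie in the region, did not pass the filter.

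The Hox genes of the other clusters were compared with the hippocampal line as the Hoxb genes were. Of 24 tested, 21 were higher and 3 lower in tdTomato NSCs, where 19.8% of all genes were higher and 37.2% differed. In EYFP NSCs 16 were higher and 2 lower, where 13.8% of all genes were higher and 25.8% differed. Several of these genes had hippocampal NSC means below the filter level, such as Hoxd3 (2.16), Hoxd4 (2.24) and Hoxc5 (2.02). They were tested because they were high in traced libraries, so nothing is read from the counts. The Hoxc and Hoxd genes of the same numbers as Hoxb4 to Hoxb9 stood above the hippocampal line as the Hoxb genes did. The Hoxa genes at the 3′ side were mixed. Hoxa2 (0.78 in the tdTomato and 1.09 in the EYFP line, SE 0.12) and Hoxa5 (0.55 and 0.83, SE 0.07) were higher in traced than in hippocampal NSCs. Hoxa3 was lower in traced than in hippocampal NSCs (-1.19 in the tdTomato and -0.86 in the EYFP line, SE 0.08), and so was Hoxa4 (-1.35 and -1.33, SE 0.15). In hippocampal NSCs Hoxa3 averaged 8.73 ± 0.06, Hoxa5 9.25 ± 0.05 and Hoxa7 8.08 ± 0.06 (SD, n = 3). Hoxc13, the 5′ counterpart of Hoxb13, averaged 6.99 in tdTomato NSCs, 1.58 in EYFP NSCs and 1.53 in hippocampal NSCs, and Hoxc11 averaged 7.71, 1.87 and 1.83. Hoxc10 and Hoxa9 were high in both traced lines, at 5.42 and 4.49 above hippocampal NSCs in the tdTomato line and 4.54 and 4.90 in the EYFP line.

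**Figure D5:**
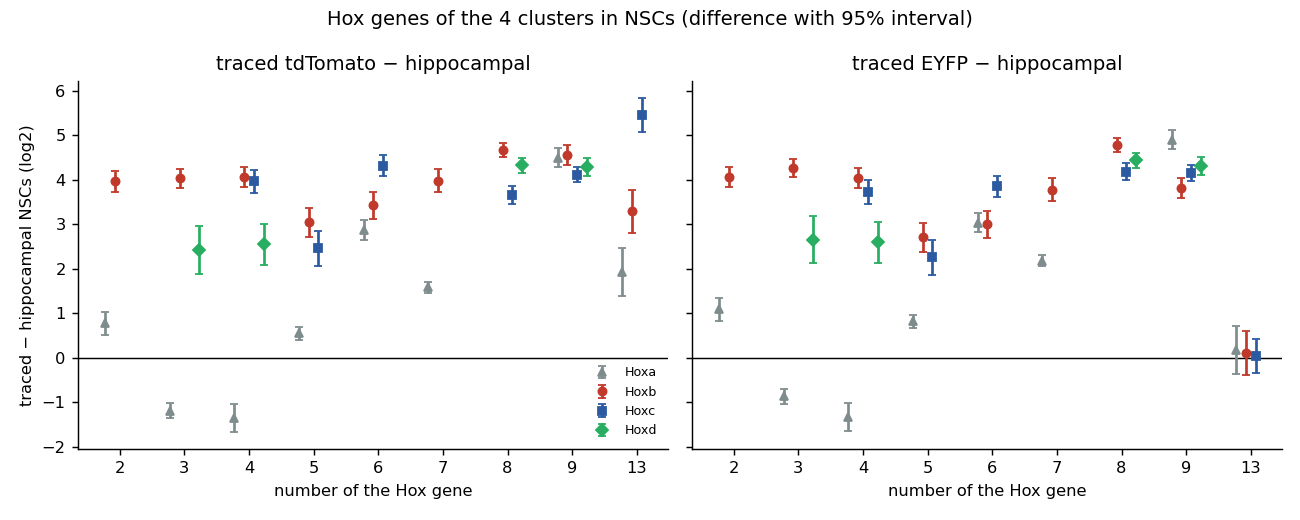
Difference of traced from hippocampal NSCs (log2, with 95% intervals from limma) for the Hox genes tested that carry the number of 1 of the 9 Hoxb genes, by number and cluster, in the tdTomato (left) and EYFP (right) line. Hoxb, Hoxc and Hoxd genes with numbers 2 to 9 lie above 2, Hoxa2 to Hoxa5 lie between -1.35 and 1.09, and the intervals of the genes numbered 13 include 0 in the right panel.

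Over all 18 libraries, the genes whose pattern was most like the mean of the centred Hoxb values were Hoxc6 (Pearson r = 0.998), Hoxc10 (0.998), Nkx6-1 (0.998), Hoxc4 (0.996) and Hoxa10 (0.994). Hoxc6 averaged 7.75 in tdTomato NSCs, 7.29 in EYFP NSCs and 3.43 in hippocampal NSCs. Those least alike were Gm6483 (-0.991), Gm36448 (-0.988), Gm7224 (-0.987), Gm7511 (-0.987) and Gm3375 (-0.986), all higher in hippocampal cultures. The points share lines, and the correlations mainly carry the step between traced and hippocampal libraries.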

How the data were processed

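Per the labels, RNA from 18 cultures was made into TruSeq stranded mRNA libraries and sequenced as single-end reads, and the paper's methods name another kit. The submitters' processing notes name Trimmomatic 0.36, STAR 2.5.2, RSEM 1.3.0, DESeq2 1.18.1 and R 3.4.3 on GRCm38. The authors deposited 1 table of normalised log2 values for 27997 genes, with 29.4% of values below 0. Which transform was used is not named, and the numbers look like a regularized log. Counts and depth cannot be recovered from it, so no counting error is given.

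Groups came from the source and cell labels. Differences were tested on the log2 values as deposited with limma 3.58.1 (R 4.3.3), with a variance trend, in 1 model of 6 group means over all 18 libraries, so that every comparison shares 1 estimate of the spread. The 15448 genes that reached 3.32 in 3 or more libraries were tested. P-values were adjusted after Benjamini and Hochberg and called under 0.05. The study ran DESeq2 on counts, which a log2 table does not allow. The fit was first tested on simulated data with known changes. SEs and 95% intervals are limma's, and the fold is 2 to the power of the difference. Coordinates and transcripts are from GENCODE M21 (GRCm38). Promoters are from a set of RefSeq promoter windows (GRCm38.p6), and the set used held 3 of the 10 members.

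All Hoxb genes are named. Also named are genes in the table within 100 kb of the cluster, up to 4 genes a list with the largest difference between group means, the 5 genes most and the 5 least correlated with the Hoxb mean, and markers that bear on the labels. Hoxa2, Hoxa3, Hoxa4, Hoxa5 and Hoxa7 were singled out after their values were seen. Some listed items are not reported here. The members and lists were chosen with earlier results of these data known. Alternatives were other filters, scalings, pseudocounts, no variance trend, only the libraries compared, a replicate block and each library left out.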

Additional observations from a re-analysis of the deposited data

Results flagged for a closer look

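Several members changed differently between lines on differentiation, by a test of the difference itself (limma interaction, Benjamini-Hochberg over all genes tested). Between the traced lines, tdTomato less EYFP, the difference in change was 0.78 for Hoxb8 (adjusted p = 0.00023, limma), 0.76 for Hoxb3 (0.002), 0.72 for Hoxb6 (0.025) and 0.60 for Hoxb9 (0.012). The Hoxb6 call was lost without tdTomato NSC replicate 2 (adjusted p = 0.073, limma), among others. Hoxb13 stood at -2.54, but it was tested only because it was high in tdTomato NSCs, so this value is a description with no test. All 3 tdTomato astrocyte libraries lay above all 3 tdTomato NSC libraries for Hoxb8 and Hoxb3, and all 3 EYFP astrocyte libraries lay below the EYFP NSC libraries. The change of Hoxb3 in the EYFP line did not itself pass (adjusted p = 0.051, limma), although it did with a pseudocount of 10 (adjusted p = 0.031), among others.

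Between the mean of the traced lines and the hippocampal line, the difference in change was 1.44 for Hoxb9 (adjusted p = 7.4e-08, limma), 0.98 for Hoxb6, 0.89 for Hoxb5 and -0.61 for Hoxb7. The latter 3 were tested through traced libraries alone, so their values are descriptions given with no p. With quantile normalization the Hoxb7 value was -0.34. Hoxb13 stood at -1.28, with the same limit as above. The hippocampal values behind these are low against the traced ones, and at low values a change may be understated.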

How the results depend on the processing

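The counts of members higher than in the hippocampal line stayed at 8 or 9 under each alternative but the filter at 100 on the linear scale (6 in each). With that filter 6 members were tested, and 4 (for 7) changed on differentiation in the tdTomato line and 2 (for 5) changed differently between traced and hippocampal lines. Quantile normalization called 6 members (for 0) between hippocampal fates, with the sign turned: Hoxb2 -0.33, Hoxb7 -0.32, Hoxb9 -0.30, Hoxb4 -0.27, Hoxb3 -0.26 and Hoxb8 -0.24. With it, in the difference between traced and hippocampal change, Hoxb8 turned to 0.33 and passed (adjusted p = 0.0078), Hoxb3 was added (0.42, adjusted p = 0.0097) and Hoxb7 stood at -0.34 and no longer passed. The cause was not tested. With each library left out, the count was 1 to 3 between traced NSCs and 3 to 6 in the interaction of the traced lines. With no variance trend, 6 further differences passed. The replicate number as a block changed none of the 99 verdicts (9 members in 11 comparisons). Numbers are shared in the labels, but same-numbered libraries of a fate in different lines correlated at a mean of 0.106, over 0.1 in 9 of 18 pairs, against -0.053 and 1 of 36 for different numbers. This is a hint of a shared effect within a fate, but not every pair passed 0.1, so the numbers were not taken to pair the samples. Depth behind the values is unknown, and weakly expressed genes such as Hoxb13 and all hippocampal Hoxb values are limited most.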

Other observations

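Of the 9 TALE homeodomain genes tested (Pbx, Meis and Pknox genes), which encode DNA-binding partners of Hox proteins, 3 differed between tdTomato and hippocampal NSCs and 7 between EYFP and hippocampal NSCs, where 37.2% and 25.8% of all genes did. On differentiation 8 of them changed in the tdTomato line, 7 in the EYFP line and 8 in the hippocampal line. Meis2 rose by 1.24 (SE 0.06), 0.77 and 0.22 on the log2 scale in the 3 lines in that order. Pbx3 fell by 0.68 (SE 0.08), 1.02 and 1.85. Pbx4 fell by 1.18 and 1.15 (SE 0.12) in the traced lines and did not pass in the hippocampal line (-0.13).

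Of 12 tested genes of retinoic acid signalling and other known inputs to Hoxb genes, 9, 10 and 11 changed on differentiation in the tdTomato, EYFP and hippocampal lines. Aldh1a1, an enzyme that makes retinoic acid, rose by 2.76, 2.77 and 2.02 (SE 0.10). Rxrg, a retinoid receptor, rose by 4.08, 4.03 and 1.44 (SE 0.27). Cyp26b1, which breaks retinoic acid down, rose by 1.72 and 1.50 (SE 0.35) in the tdTomato and hippocampal lines, and in the EYFP line its change of 0.19 did not pass. Egr2, an activator of Hoxb2 in the hindbrain, fell by 1.91, 3.10 and 3.26 (SE 0.20).

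Of 18 Polycomb and trithorax genes, which hold Hox clusters off or on, 15, 14 and 15 changed. Ezh2, the Polycomb methyltransferase of dividing cells, fell by 2.41, 2.09 and 1.95 (SE 0.07), while Ezh1 rose by 1.86, 1.70 and 1.73 (SE 0.07). Cbx7 rose by 1.55, 1.53 and 2.06 (SE 0.11) and Pcgf2 by 1.69, 1.06 and 1.44 (SE 0.12). Counts of changed genes in these lists stand against 78.4%, 75.2% and 76.3% of all genes.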
